A study of Mus musculus with 6 samples.

Results

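The TRIM (tripartite motif) genes were examined in mouse bone marrow-derived macrophages (BMDMs) that carried or lacked Drp1, the GTPase that divides mitochondria. Members were the protein-coding genes of the GRCm39 annotation whose symbol is Trim, a number and at most a single further letter, with at least 10 estimated counts summed over 6 libraries. Of 68 such genes, 57 met the minimum, among 18506 genes tested in all. The other 11 (Trim10, Trim31, Trim40, Trim42, Trim54, Trim55, Trim60, Trim61, Trim72, Trim75 and Trim80) had 0 to 8 counts in total and were not tested.

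BMDMs were grown for 7 days in medium conditioned by L929 cells and then held for 8 hours in serum-free medium at 2.1% oxygen (HSS, hypoxia with serum starvation, a culture model of ischemia). Messenger RNA was sequenced from 3 WT and 3 Drp1 KO libraries, and there was no library from cells in normal oxygen. Drp1 KO cells came from LysM-Cre+/- Drp1 fl/fl mice, in which the lysozyme M promoter drives Cre in myeloid cells. For the RNA-seq, WT cells came from mice that carry the same Cre transgene with intact Drp1 (LysM-Cre+/- Drp1+/+), so Cre was present in both groups. The labels call the 3 libraries of a group biological replicates. Marrow was pooled within a genotype, and whether each library came from a separate pool is not stated, so p-values measure the spread between these libraries.

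TRIM proteins are built from a RING domain, B-boxes and a coiled coil, followed in most by a C-terminal domain that binds the target. Most are E3 ubiquitin ligases, which pass ubiquitin from an E2 enzyme to a substrate. In macrophages many are known as interferon-stimulated genes that restrict viruses or tune the signalling of nucleic acid sensors and Toll-like receptors.

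The libraries held 24269850 to 28650715 estimated counts in WT and 23389488 to 32231206 in Drp1 KO, and 3 counts correspond to 0.0917 to 0.136 CPM (counts scaled to the size of the library). All 8 macrophage markers were detected, with a summed level of 4940 to 6487 CPM. Of these, Csf1r (log2 fold change −0.52), Mertk (−0.52) and Mrc1 (−0.42) fell in Drp1 KO and Fcgr1 (1.34) rose (adjusted p of 0.0340, 0.0236, 0.0407 and 0.000322, edgeR), and their part in the TRIM values was not tested. The markers of dendritic cells, lymphocytes and fibroblasts summed to 1.95 to 5.83 CPM. The neutrophil markers summed to 6.81 to 21.1 CPM in WT and 20.5 to 48.3 CPM in Drp1 KO libraries. Dnm1l, which encodes DRP1, had a mean of 72.6 ± 2.61 CPM over the WT and 61.9 ± 3.91 CPM over the Drp1 KO libraries (SD, n = 3; adjusted p = 0.248, edgeR), and these counts cover the whole gene, not the deleted part. In bulk RNA, fewer cells of a type and less RNA per cell cannot be told apart.

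The sequences shown are from the starts of TRIM genes on chromosome 7, since most of the members that rose lie in a cluster there. Trim21 is shown from outside that cluster. The core of the interferon-stimulated response element, a DNA element found at many interferon-induced genes, was searched on both strands. It was taken as GAAA, any 2 bases and GAAA (TTTC, any 2 bases and TTTC in the opposite orientation). The search covered RefSeq promoter windows, from 250 bases before to 50 bases after a start site annotated for the gene. The windows were given on GRCm38.p6, and each stretch was matched by sequence to GRCm39, whose coordinates are used here. Stretches of 30 bases are written 5′ to 3′ on the gene's strand, with the match in capitals.
Trim30a, chr7:104114417-104114446, minus strand, outside exons: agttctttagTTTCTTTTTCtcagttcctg
Trim30d, chr7:104157078-104157107, minus strand, exon: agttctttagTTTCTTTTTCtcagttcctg
Trim30c, chr7:104050103-104050132, minus strand, outside exons: agttctgtggTTCCTTTTTCtcagttccac
Trim34a, chr7:103893664-103893693, plus strand, exon: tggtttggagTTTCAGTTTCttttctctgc
Trim12a, chr7:103964673-103964702, minus strand, exon: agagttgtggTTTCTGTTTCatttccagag
Trim12c, chr7:104002566-104002595, minus strand, exon: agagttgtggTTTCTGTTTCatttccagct
Trim21, chr7:102214657-102214686, minus strand, exon: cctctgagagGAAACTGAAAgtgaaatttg
The Trim30c line is no match of the motif. It is the stretch of the Trim30c window most like that of Trim30a, with 25 of 30 bases identical, and its capitals mark the corresponding bases. The Trim5 window holds the same 30 bases as that of Trim12a. A second match that overlaps the one shown lies in Trim21. Trim30a holds a further match in another of its windows, in the exon stretch 104095311 to 104095340.

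A RefSeq window was found for 43 of the 57 members, and 9 of them (20.9%) held this core, against 3.99% of the 27025 genes in the table. The 9 were Trim2, Trim5, Trim12a, Trim12c, Trim21, Trim26, Trim30a, Trim30d and Trim34a. Near-identical copies share their promoter sequence, so these 9 are fewer than 9 independent occurrences. In the chromosome 7 cluster 6 of 10 genes held it, and outside the cluster 3 of 33. Of the members that rose, Trim25, Trim30b and Trim30c had no match in their windows. The Trim30b window lies inside the gene, near 104007896 to 104007925, so its annotated 5′ end at 104019103 was not searched. Trim2 and Trim26 had a match with log2 fold changes of −0.0028 and 0.11. The core of the gamma-activated site, TTCNNNGAA, was found in 5 of 43 windows (11.6%; Trim15, Trim30c, Trim38, Trim45 and Trim46), against 9.55% of all genes. A match describes the letters only and is not evidence of binding.

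The question was which TRIM genes differed by genotype after HSS. By edgeR's quasi-likelihood test, 7 of 57 members rose in Drp1 KO at a Benjamini-Hochberg adjusted p under 0.05 (Trim12a, Trim25, Trim30a, Trim30b, Trim30c, Trim30d and Trim34a), where 2.29% of all genes tested rose. None fell, where 1.06% of all genes did. In the falling direction 4 members had an unadjusted p under 0.05 (Trim32, Trim37, Trim38 and Trim41). The share of all genes at that threshold alone was not counted, here or below, so such counts stand without a comparison. At an adjusted p under 0.05, DESeq2 called 1 member as lower (Trim37; 2.66% of all genes) and limma-voom 0 (1.15% of all genes). Of the 7 genes that rose, 6 are in the chromosome 7 cluster. The median log2 fold change over the 57 members was 0.04, with 30 higher and 27 lower, and over all genes tested it was 0.0046. In the plot of log2 fold changes the 5 highest genes are of the cluster, with Trim46 above Trim6, and Trim25, Trim21 and Trim52 above Trim12c and Trim5. Trim34b is too low to be plotted.

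**Figure D1:**
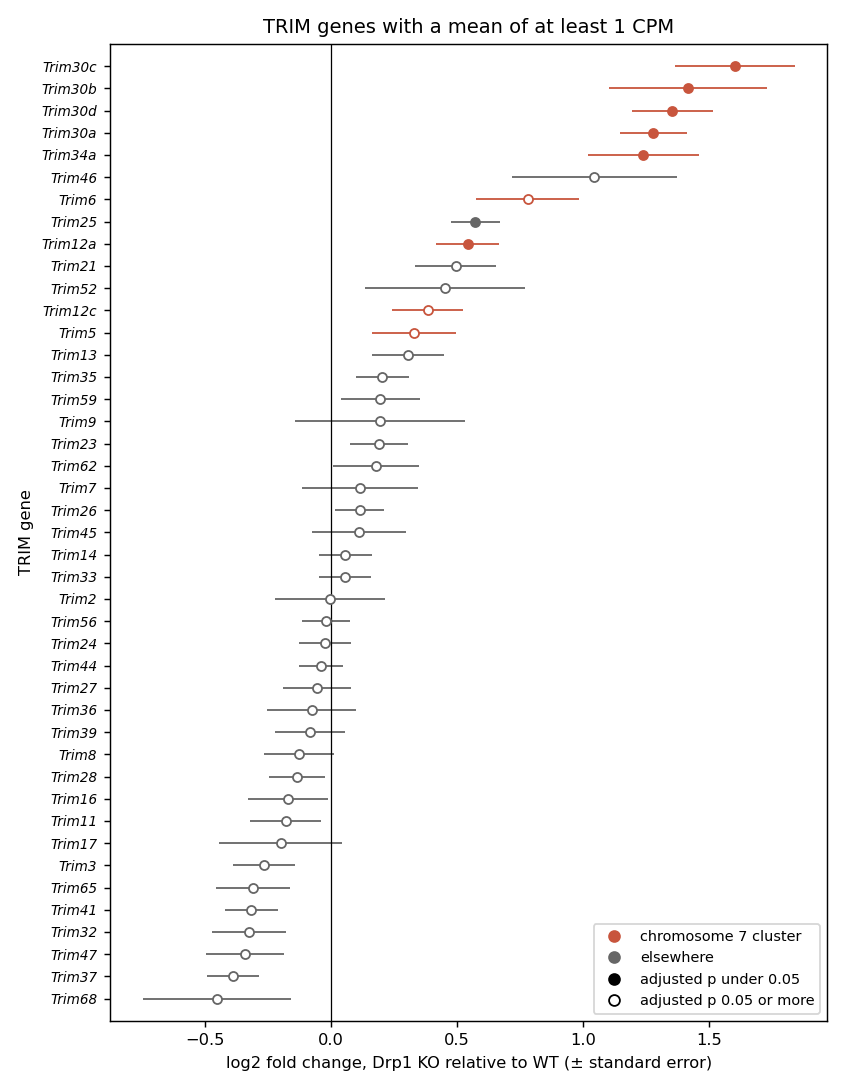
Log2 fold change (Drp1 KO relative to WT, horizontal axis, bars ± standard error) of the 43 TRIM genes whose mean reached 1 CPM, ordered by value. Red marks the chromosome 7 cluster and filled symbols an adjusted p under 0.05, with Trim30c highest at 1.60 and Trim25 the single filled symbol outside the cluster.

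With the study's rule (an absolute log2 fold change over 0.32 with an unadjusted p under 0.05) in the same edgeR fit, 11 members passed as higher, where 7.19% of all genes did. Trim6, Trim12c, Trim21 and Trim46 joined the 7. The same rule gave 3 members as lower (Trim32, Trim37 and Trim38), where 5.48% of all genes did. The 3 WT and 3 Drp1 KO values did not overlap in 10 members that were higher and 6 that were lower in Drp1 KO, where 11.7% and 10.3% of all genes did so. With the replicate number as a block, 11 members rose (the same genes that passed the study's rule as higher) and 3 fell (Trim37, Trim41 and Trim65), where 6.73% and 5.22% of all genes did. The number that rose was 3 when WT library 2 was left out (0.768% of all genes), and 4 when WT library 3 (0.902%), the second (1.24%) or the third (1.48%) Drp1 KO library was.

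The Trim30 genes were the members with the largest called changes. Trim30a (chromosome 7, 104058232 to 104114407, minus strand) encodes a ligase known to restrain Toll-like receptor signalling to NF-κB. Its level was 106, 91.2 and 86.1 CPM in the WT libraries 1 to 3 and 188, 245 and 254 CPM in the Drp1 KO libraries. The lowest Drp1 KO library was above the highest WT library, and the fold was 2.43 (log2 fold change 1.28, SE 0.13, adjusted p = 0.000711, edgeR).

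Trim30d (104119221 to 104157107, minus strand), the neighbouring copy, was at 35.6, 33.7 and 31.7 CPM in WT and 63.9, 89.5 and 105 CPM in Drp1 KO. Its log2 fold change was 1.35 (SE 0.16, adjusted p = 0.00159, edgeR). Trim30c (104031272 to 104050044, minus strand) was at 4.44, 5.06 and 4.46 CPM in WT and 8.76, 16.5 and 17.1 CPM in Drp1 KO, and its change was 1.60 (SE 0.24, adjusted p = 0.00587). In both genes the groups did not overlap, and library 1 was the lowest of the Drp1 KO libraries.

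Trim30b (104004589 to 104019103, minus strand), whose annotated reading frame is short at 238 codons against 496 in Trim30a, was the lowest of the 4. It was at 1.85, 2.25 and 2.21 CPM in WT and 2.91, 6.66 and 7.21 CPM in Drp1 KO (log2 fold change 1.42, SE 0.31, adjusted p = 0.0383, edgeR). The groups did not overlap, but the Drp1 KO libraries differed from each other more than in the other 3 genes relative to their mean. The call was lost with limma-voom (adjusted p = 0.0725), when WT library 1 (0.0756), 2 (0.155) or 3 (0.133) was left out, and when Drp1 KO library 2 (0.177) or 3 (0.131) was.

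Coding sequences of the Trim30 genes are alike: over aligned bases Trim30a is 90.2% identical to Trim30d, 87.6% to Trim30b and 83.2% to Trim30c. Reads that several copies share are divided among them by kallisto, so the split between copies is less certain than their sum. Of the stretches of 31 bases in their transcripts, 11.7% in Trim30a, 12% in Trim30d, 5.69% in Trim30c and 2.66% in Trim30b also occur in another gene. With the counts of the 4 genes added, the level was 148, 132 and 124 CPM in WT and 263, 358 and 383 CPM in Drp1 KO. This sum rose by 1.31 on the log2 scale (SE 0.14, adjusted p = 0.000903, edgeR), which does not depend on how reads were divided among the copies.

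**Figure D2:**
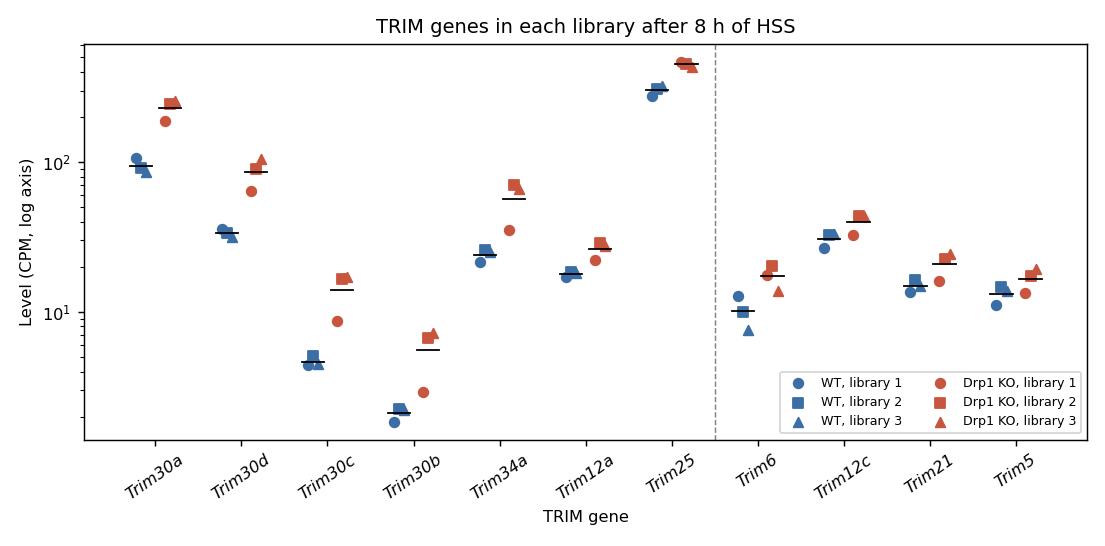
Level in CPM (log axis) of 11 TRIM genes in each of the 3 WT (blue) and 3 Drp1 KO (red) libraries, with symbols for the library number and a line at each group's mean. The 7 genes left of the dashed line rose at an adjusted p under 0.05, and in 6 of them library 1 (circle) is the lowest Drp1 KO library.

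Trim34a (103893663 to 103911446, plus strand) was also lowest in library 1 among the Drp1 KO libraries. It was at 21.5, 26.05 and 24.9 CPM in WT and 35.3, 69.8 and 65.8 CPM in Drp1 KO, with no overlap (log2 fold change 1.24, SE 0.22, adjusted p = 0.0146, edgeR). The adjusted p passed 0.05 when WT library 2 (0.0766) or 3 (0.0636) was left out, and when Drp1 KO library 2 (0.0780) or 3 (0.0502) was. Its copy Trim34b, 98.8% identical in coding sequence, had 0, 7 and 10 counts in WT and 4, 2 and 3 in Drp1 KO. The ratio of Drp1 KO over WT was 0.480 (95% counting interval 0.189 to 1.14, from pooled counts without the spread between libraries). As 53.1% of the 31-base stretches of Trim34a occur in other genes, the pair was also summed, with a change of 1.23 (adjusted p = 0.0152).

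Trim5, Trim12a and Trim12c are the mouse relatives of primate TRIM5, which is known to block incoming retroviral capsids. Trim12a (103945967 to 103964797, minus strand), with a reading frame of 297 codons against 497 in the other two, was at 17.2, 18.4 and 18.3 CPM in WT and 22.1, 28.9 and 27.5 CPM in Drp1 KO. The groups did not overlap and the change was 0.54 (SE 0.12, adjusted p = 0.0442, edgeR). This call, the weakest of the 7, was lost with library size only (adjusted p = 0.0683), with length-scaled counts (0.0570) and without any of the libraries other than Drp1 KO library 1 (0.0826 to 0.190).

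Trim12c was at 26.5, 32.8 and 32.9 CPM in WT and 32.6, 43.7 and 44.0 CPM in Drp1 KO (log2 fold change 0.38, adjusted p = 0.200, and 0.0118 with the replicate block, edgeR). It was also called without Drp1 KO library 1 (adjusted p = 0.0446, edgeR) and without both libraries numbered 1 (0.0195). Trim5 was at 11.1, 14.8 and 13.9 CPM in WT and 13.3, 17.3 and 19.4 CPM in Drp1 KO (0.33, adjusted p = 0.364, and 0.0647 with the block), and its change was 0.21 when Drp1 KO library 3 was left out and 0.22 when WT library 1 was. In both, the Drp1 KO library 1 lay inside the range of WT, while libraries 2 and 3 lay above it. The 3 coding sequences are 96.4% to 97.1% identical. In 31-base stretches 53.2% of Trim5, 46.5% of Trim12c and 10.7% of Trim12a is shared with other genes. Their summed counts changed by 0.42 (adjusted p = 0.127), so the call of Trim12a did not hold for the sum of the copies.

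Trim6 (103868000 to 103884359, plus strand), a ligase known from antiviral signalling through IKKε, lies at the other end of the cluster. It was at 12.8, 9.93 and 7.56 CPM in WT and 17.8, 20.3 and 13.8 CPM in Drp1 KO. The groups did not overlap, but by a margin of about 1 CPM, and the change of 0.78 (SE 0.20) had an adjusted p of 0.0731 by edgeR. It was called with the replicate block (adjusted p = 0.00234), by DESeq2 (0.0101), with all genes of at least 1 count (0.00815), without WT library 1 (0.0237) and without both libraries numbered 1 (0.0180).

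The cluster of 10 TRIM genes spans 289 kb of chromosome 7 (103868000 to 104157107). Over its 10 genes the median log2 fold change was 1.01, 9 were higher in Drp1 KO and 6 were called as higher, where 2.29% of all genes were. Over the 47 members elsewhere the median was −0.023 and 1 was called, a share close to that of all genes. The 53 other genes tested inside the span or within 1 Mb of it, of which 47 carry olfactory receptor symbols, gave 0 calls by edgeR. Of these, 2 had an unadjusted p under 0.05, DESeq2 called 1 and limma-voom 0, and with the replicate block 1 fell. Only 17 of the 53 reached a mean of 1 CPM, so changes in most of them were hard to detect at this depth.

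**Figure D3:**
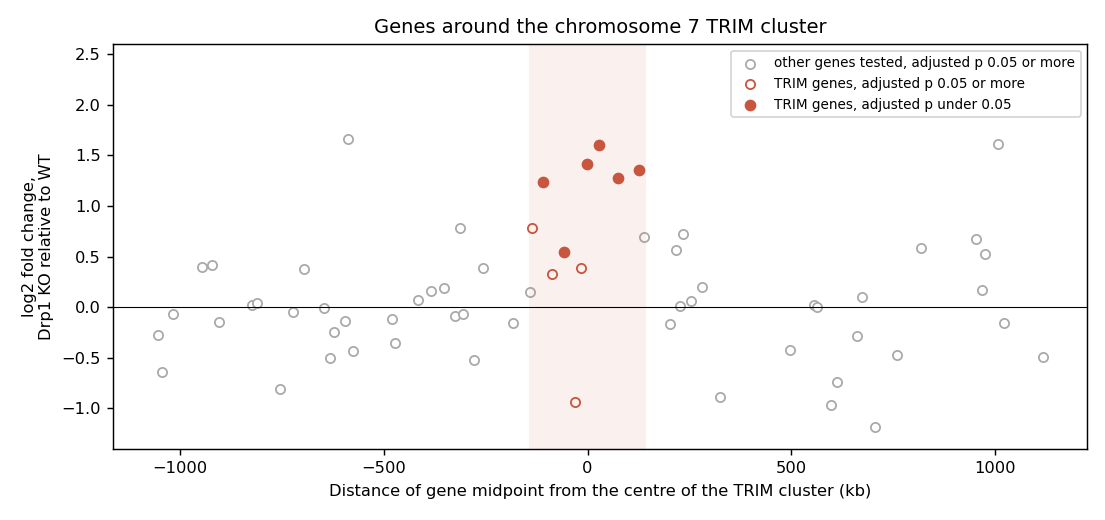
Log2 fold change (Drp1 KO relative to WT) of genes tested inside the TRIM cluster (shaded) or within 1 Mb of it, against the distance in kb of each gene's midpoint from the centre of the cluster. The 6 filled red points are the TRIM genes called higher, the low red point is Trim34b with 26 counts in all, and none of the 53 grey points is called by edgeR without the replicate block.

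Trim25 (chromosome 11, 88890202 to 88911122, plus strand) encodes a ligase that acts in signalling by the RNA sensor RIG-I. It was at 277, 306 and 321 CPM in WT and 466, 452 and 429 CPM in Drp1 KO. The groups were well apart, and its Drp1 KO library 1 was the highest of the 3, which in the cluster held for Trim34b alone. The log2 fold change was 0.57 (SE 0.10, adjusted p = 0.0104, edgeR), a fold of 1.49. The call did not hold when WT library 2 was left out (adjusted p = 0.0822) or with counts scaled for transcript length (log2 fold change 0.38, adjusted p = 0.136).

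The length scaling acts on Trim25 through its transcripts, which were looked at after these values were seen and were not tested. The short transcript Trim25-202 (1433 bases) took 36.8% to 44.6% of the gene's estimated counts in WT and 30.4% to 34.4% in Drp1 KO. Its counts, not scaled for depth, were 2370, 3408 and 4201 in WT and 3525, 4598 and 4244 in Drp1 KO. The long Trim25-203 (5590 bases) had 3933, 4730 and 5220 counts in WT and 6514, 9068 and 8496 in Drp1 KO. The difference in counts thus lay mainly in the long transcripts, and the share of the short one did not overlap between the groups.

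Trim21 (chromosome 7, 102207128 to 102214704, minus strand), outside the cluster, encodes the cytosolic antibody receptor. It was at 13.6, 16.2 and 14.9 CPM in WT and 16.1, 22.4 and 24.5 CPM in Drp1 KO. Drp1 KO library 1 lay inside the WT range, and the change of 0.49 (SE 0.16) had an adjusted p of 0.144, or 0.0163 with the replicate block (edgeR). It was called without Drp1 KO library 1 and without both libraries numbered 1. Trim46, known for organizing microtubules in axons, was low, at 0.69, 0.86 and 0.68 CPM in WT and 1.63, 1.89 and 1.10 CPM in Drp1 KO. Its change was 1.05 (SE 0.33, adjusted p = 0.130, and 0.0378 with the block).

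Among members with lower values, Trim37, the MATH-domain ligase that limits centrosome assembly, was at 53.4, 51.7 and 50.2 CPM in WT and 35.05, 41.1 and 42.4 CPM in Drp1 KO. The groups did not overlap, and its log2 fold change was −0.39 (SE 0.10, adjusted p = 0.0762, edgeR). It was called with the replicate block (adjusted p = 0.0170), by DESeq2 (0.0226), with all genes of at least 1 count (0.0483) and with length-scaled counts (0.0393).

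Trim41 was at 34.7, 34.4 and 40.5 CPM in WT and 27.9, 29.6 and 30.5 CPM in Drp1 KO, again with no overlap. The change was −0.32 (SE 0.11, adjusted p = 0.158, and 0.0331 with the block, edgeR), and −0.71 with length-scaled counts (adjusted p = 0.0168). A short transcript of Trim41 (723 bases) took 22.9% to 27.6% of the gene's counts in WT and 17.6% to 22.0% in Drp1 KO. A short transcript of Trim37 (1017 bases) took 15.9% to 18.2% in WT and 10.0% to 14.8% in Drp1 KO. For these 2 genes, as for Trim25, the transcripts were examined after the gene values were seen and have no test.

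Trim65, which ubiquitinates the RNA sensor MDA5, was at 19.6, 23.1 and 24.7 CPM in WT and 14.7, 19.4 and 20.2 CPM in Drp1 KO. The groups overlapped, and the change of −0.31 had an adjusted p of 0.331, or 0.0442 with the block (edgeR). On leaving out Drp1 KO library 1 it was −0.19. Trim32, an NHL-domain ligase of muscle, was at 11.2, 9.37 and 9.13 CPM in WT and 7.13, 8.55 and 7.91 CPM in Drp1 KO (−0.33, adjusted p = 0.303, and −0.61 with an adjusted p of 0.0802 with length-scaled counts). The Trim32 change ran from −0.40 to −0.23 over the fits that left out a library, and was −0.17 without both libraries numbered 1. Trim38 had 4, 1 and 6 counts in WT and 0, 0 and 1 in Drp1 KO, a ratio of 0.0824 (95% counting interval 0.00192 to 0.567). That interval pools the counts of each group and leaves out the spread between libraries. The adjusted p of Trim38, which includes that spread, was 0.213 (edgeR).

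Grouped by the C-terminal domain known for each protein, 28 members were classed with an SPRY domain alone, and 6 of them rose, where 2.29% of all genes did. Of these 6, only Trim25 lies outside the chromosome 7 cluster. Trim30b is counted here by its name, although its short annotated frame may not hold the domain, and Trim12a, also short, was left unclassed. None of the 4 NHL members (Trim2, Trim3, Trim32 and Trim71), the 4 PHD-bromodomain members (Trim24, Trim28, Trim33 and Trim66) and the 4 COS-FN3-SPRY members (Trim9, Trim36, Trim46 and Trim67) was called by edgeR at an adjusted p under 0.05. At an unadjusted p under 0.05 these 12 held Trim32, lower, and Trim46, higher, and neither DESeq2 nor limma-voom called any of the 12. With the replicate block Trim46 rose. A count of 0 among 12 is read against the 2.29% and 1.06% of all genes that rose and fell, and is no result about these classes.

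Levels of different genes were compared in TPM, the deposited unit that is scaled by transcript length. Over all libraries the most abundant members were Trim25 (mean 183 TPM), Trim30a (75.1), Trim14 (72.1), Trim33 (66.8) and Trim8 (51.4). In WT alone Trim30a (45.3 TPM) was below Trim14, Trim33, Trim8, Trim28 and Trim41. Trim14 is an adaptor of the sensing relay at mitochondria, Trim33 a chromatin-bound partner of SMAD proteins, and Trim8 a regulator of cytokine signalling. In Trim14 (log2 fold change 0.06, adjusted p = 0.871), Trim33 (0.05, 0.876) and Trim8 (−0.13, 0.743) the groups overlapped (edgeR). Intervals of the change were −0.15 to 0.26 for Trim14, −0.15 to 0.26 for Trim33 and −0.40 to 0.15 for Trim8. They are nominal 95% intervals by a normal approximation, which is too narrow for 3 libraries per group.

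**Figure D4:**
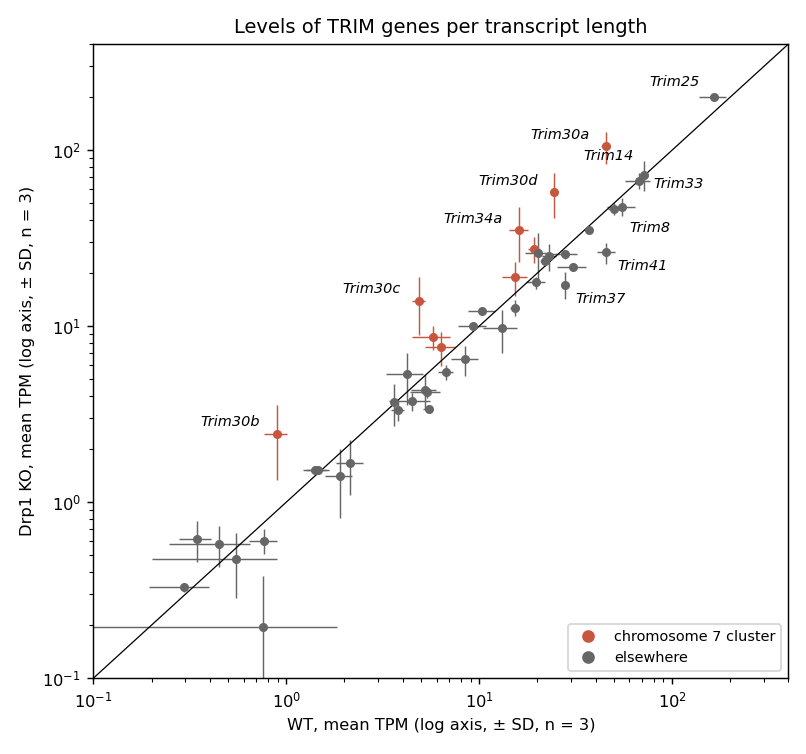
Mean TPM of TRIM genes in Drp1 KO against WT (both log axes, bars ± SD, n = 3; genes with a mean of at least 0.3 TPM), with the line of equal levels. Trim30a moves from 45.3 TPM in WT to 105 TPM in Drp1 KO, while Trim14 and Trim33 lie on the line.

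The summed level of Trim30a to Trim30d was 75.4 ± 2.24 TPM in WT and 178.6 ± 43.3 TPM in Drp1 KO (SD, n = 3). The 10 genes of the cluster took 14.8% to 15.7% of all TRIM TPM in WT and 22.2% to 29.4% in Drp1 KO. The members outside the cluster summed to 768 ± 46.4 TPM in WT and 746 ± 34.4 TPM in Drp1 KO. The sum over all members, 906 ± 49.9 TPM in WT and 1022 ± 98.7 TPM in Drp1 KO, thus differed mostly through the cluster.

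In the cluster, Drp1 KO library 1 was the lowest of its group in 8 of 10 genes. WT library 1 was the lowest of its group in 7 of 10 and the highest in the other 3 (Trim6, Trim30a and Trim30d). The neutrophil markers were also lowest in libraries 1 of both groups (6.81 and 20.5 CPM), and were higher in Drp1 KO at an unadjusted p under 0.05 in 4 of the 6 markers tested (Ngp, Ltf, S100a8 and S100a9). With the replicate block edgeR called all 4, with adjusted p of 7.9e-05 for S100a9, 0.00145 for S100a8, 0.00264 for Ngp and 0.0194 for Ltf. Without the block edgeR called 0, DESeq2 2 and limma-voom 0. Their part in the TRIM values was not tested. Without both libraries numbered 1, an alternative chosen after the data were seen, 10 members rose (5.94% of all genes) and none fell (4.56% of all genes).

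The partners of TRIM proteins were described from lists of genes. In the nucleic acid sensing relay, which TRIM25 and TRIM65 act on, 5 of 17 genes rose and none fell (edgeR, adjusted p under 0.05), where 2.29% of all genes rose and 1.06% fell. Rigi, the target of TRIM25, was at 63.5, 60.4 and 47.3 CPM in WT and 128, 160 and 182 CPM in Drp1 KO (log2 fold change 1.46, adjusted p = 0.000711). Ifih1, which encodes MDA5, changed by 1.06 on the log2 scale. The transcription factor gene Irf7 was at 74.6, 21.2 and 19.3 CPM in WT and 349, 355 and 271 CPM in Drp1 KO, a change of 3.09, with WT library 1 above the other WT libraries. Dhx58, a regulator of both sensors, rose 2.39-fold. With the replicate block 8 of 17 rose, where 6.73% of all genes did.

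Of the 11 tested genes of interferon signalling, 6 rose and none fell, against the same 2.29% and 1.06% of all genes. Stat2 (log2 fold change 1.33), Irf9 (0.98) and Usp18 (3.16), which restrains interferon receptor signalling, were among them. Ifnb1, the interferon gene of the list, had 5 counts in all and was not tested. Its mean was 0 TPM over the WT and 0.139 TPM over the Drp1 KO libraries. At an unadjusted p under 0.05, edgeR without the block found no gene of either list lower.

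Among 16 E2 enzymes and partners, 1 rose, where 2.29% of all genes did. Ube2l6, the E2 enzyme of ISG15 conjugation, was at 32.9, 31.8 and 24.9 CPM in WT and 62.1, 67.3 and 74.5 CPM in Drp1 KO (log2 fold change 1.19, adjusted p = 0.00088, edgeR). With the replicate block Ube2d3, Ube2n and Ube2w rose too (6.73% of all genes), with changes of 0.27 to 0.39 in the fit without it. Ube2n and Ube2d3 encode E2 enzymes used by many RING ligases.

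None of 6 TRIM-family genes with other names was called (edgeR, DESeq2 and limma-voom). The nearest was Pml, the scaffold of nuclear bodies, with means of 54.9 CPM over WT and 64.5 CPM over Drp1 KO libraries (log2 fold change 0.23, adjusted p = 0.257), the 1 gene of the 6 with an unadjusted p under 0.05 by edgeR. None of 8 autophagy partners was called by these tools. Optn, a ubiquitin-binding autophagy receptor and the 1 partner with an unadjusted p under 0.05, had a change of −0.40 (adjusted p = 0.236, and 0.00628 with the block).

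Of the 57 members, 14 had a mean under 1 CPM over the 6 libraries, and edgeR, DESeq2 and limma-voom called none of them, where edgeR called 2.29% of all genes higher and 1.06% lower. Trim38 was the 1 gene of the 14 with an unadjusted p under 0.05 by edgeR. Trim43a, Trim43b and Trim43c, copies on chromosome 9, were at group means of 0.118 to 0.596 CPM. Differences in these genes were not detectable at this depth unless very large.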

How the data were processed

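RNA-seq of 3 WT and 3 Drp1 KO BMDM libraries was used. The authors quantified reads with kallisto 0.46.1 (submitters' processing notes) on an index of Ensembl cDNA sequences of GRCm39, and deposited an estimated count and a TPM value per transcript and library. By identifier, 99.4% of 116873 transcripts matched GENCODE genes of GRCm39. Estimated counts were summed per gene, rounded, and genes with at least 10 counts were tested with edgeR 4.0.16 (TMM, quasi-likelihood test, no covariate, Benjamini-Hochberg over 18506 genes). An exact permutation test of 3 against 3 libraries cannot go below p = 0.1. The test was checked on simulated data.

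Alternatives were DESeq2 1.42.0, limma-voom (limma 3.58.1), other scalings and filters, length-scaled counts, summed copies, a replicate block and leaving out libraries. CPM used TMM factors, and standard errors are the log2 fold change over the square root of F. Deviations of same-numbered libraries correlated at 0.539, 0.218 and 0.352 over 12248 genes, and WT library 2 with Drp1 KO library 3 at 0.339. As all 3 same-numbered values exceed 0.1, results with the replicate number as a block stand beside those of the fit without it where a call changes. This pairing rests on the data, since the study states none.

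The members and lists were chosen with earlier results of these data known. Genes named are members called or passing the study's rule, the 5 most abundant, the chromosome 7 copies, members whose call changed under an alternative, and up to 4 called genes per partner list, where 1 gene is not reported here. Promoter windows are RefSeq's (GRCm38.p6). Stretches of 31 bases were taken from GENCODE transcripts.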

Additional observations from a re-analysis of the deposited data

How the results depend on the processing

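The 7 members called higher, where 2.29% of all genes rose, became 11 with the replicate block (6.73% of all genes). They ranged from 3 to 9 when a library was left out, where 0.768% to 2.89% of all genes rose. The 0 called lower, where 1.06% of all genes fell, became 1 with DESeq2 (2.66% of all genes) or with genes of at least 1 count (1.75%). It became 2 with length-scaled counts (0.733%) and 3 with the block (5.22%). In each fit that left out a library it stayed at 0, where 0.232% to 2.27% of all genes fell. By the study's rule the 11 higher ranged from 9 to 12 on leaving out a library. The 3 lower became 5 with RLE size factors or length-scaled counts, and ranged from 0 to 4. Of the partner lists, 12 genes rose, 18 with the block, 18 without both libraries numbered 1 and 10 to 15 with a library left out, and the 0 that fell became 1 with the block and 1 without both libraries numbered 1. The median log2 fold change of 0.04 was 0.111 with limma-voom and −0.048 to 0.121 over the fits that left out a library. Among the members named by the rule, the sign turned in Trim8 (0.02) and Trim33 (−0.01) without WT library 1, in Trim14 (−0.02) without Drp1 KO library 3, and in Trim34b (1.23) when summed with Trim34a, whose counts make up nearly all of that sum. Over those fits the change ran from −0.24 to 0.02 in Trim8, −0.01 to 0.13 in Trim33 and −0.02 to 0.12 in Trim14. Beyond the members named beside their blocked values, the block changed no call among the named TRIM genes. Trim30a, Trim30c and Trim30d were called in all 15 alternative fits. Other members with changes near 0 or few counts, Trim2, Trim9, Trim15, Trim24, Trim36 and Trim66 among them, also turned sign in some fits. The causes were not tested. Genes under about 1 CPM are limited by depth.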
